A study of Mus musculus with 12 samples.

Results

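The 33 genes described here encode proteins that build ribosomes in the nucleolus, with 3 enzymes of polyamine and pyrimidine synthesis beside them. Members were every row of the deposited count tables whose gene symbol was on a list of 33 names, whatever its values. All 33 names were found, each under 1 Ensembl identifier, among the 55349 genes common to the tables of untreated and stimulated cells, and all 33 passed the low-count filter in every comparison. By role they were 5 proteins of nucleolar structure and chaperoning, 7 of small nucleolar ribonucleoprotein particles (snoRNPs), 3 subunits of RNA polymerase I, 7 factors of the small (40S) subunit, 8 factors of the large (60S) subunit and the 3 enzymes.

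B cells from mouse spleen were profiled by poly(A) RNA-seq to ask how hnRNP A1 and hnRNP A2B1, RNA-binding proteins with roles in splicing, act in the B cell response. The groups were 2 libraries of stimulated double-knockout (DKO) cells, 2 of stimulated WT cells, 3 of untreated DKO cells and 3 of untreated WT cells, with 2 further untreated WT libraries whose titles and table set them apart, called the additional WT libraries here. Stimulated cells had spent 48 h in culture with anti-IgM (10 µg/mL) and anti-CD40 (1 µg/mL), while RNA of untreated cells was taken after negative selection on CD43 beads, without culture. DKO cells lacked both genes through Cre and loxP; the sources used here give no Cre driver, strain or age of the mice. The labels do not say that the libraries of a group came from separate mice, so every p-value below measures the spread between libraries only. Culture, time, stimulation and deposited table changed together between untreated and stimulated cells and cannot be told apart.

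Ribosomes are assembled in the nucleolus, where RNA polymerase I transcribes the long precursor of the ribosomal RNAs. Guided by small nucleolar RNAs, snoRNPs methylate and pseudouridylate this precursor, and sets of assembly factors then fold, cut and export the pre-40S and pre-60S particles. Resting B cells are small and make few ribosomes, and growth after antigen receptor engagement is known to raise ribosome production, with the transcription factor Myc among its activators.

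Library totals lay between 15090953 and 21731893 counts. The targeted transcripts checked the labels: Hnrnpa1 had 277 and 246 CPM in stimulated DKO cells, against 1729 and 1678 CPM in stimulated WT cells, and 78.5, 204 and 101 CPM in untreated DKO cells, against 719, 695 and 682 CPM in untreated WT cells, and Hnrnpa2b1 was likewise lower in all 5 DKO libraries. None of the 7 B cell markers was at 0 throughout a group, and of the other lists the neutrophil and natural killer markers summed to at most 5.96 CPM. Of the 8 T cell markers, Lck alone was at 45.4 to 183 CPM over the 10 libraries of the main groups, while the other 7 summed to 1.13 to 4.13 CPM. In such bulk samples, fewer cells of a type and less RNA per cell cannot be told apart. The additional WT libraries stood apart in these genes: 28 of the 33 members were below, in both, every numbered untreated WT library, and monocyte and macrophage markers summed to 176 to 224 CPM in them, against 55.6 to 60.3 CPM in the numbered ones. They were kept out of the main comparisons, and the results they change are given with and without them.

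Levels are library-scaled counts (CPM, the field's usual depth-normalised unit), scaled by TMM factors over all 12 libraries. Summed over the 33 genes, 1.34% and 1.40% of all gene counts fell on them in stimulated DKO cells, against 1.01% and 0.859% in stimulated WT cells. In untreated cells the shares were 1.70%, 1.53% and 1.57% in DKO, against 1.37%, 1.43% and 1.32% in WT. Every DKO library was thus above every WT library of the same condition, and each stimulated WT library was below every numbered untreated WT library. The additional WT libraries held 0.882% and 0.958%, within the range of the stimulated WT libraries.

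**Figure D1:**
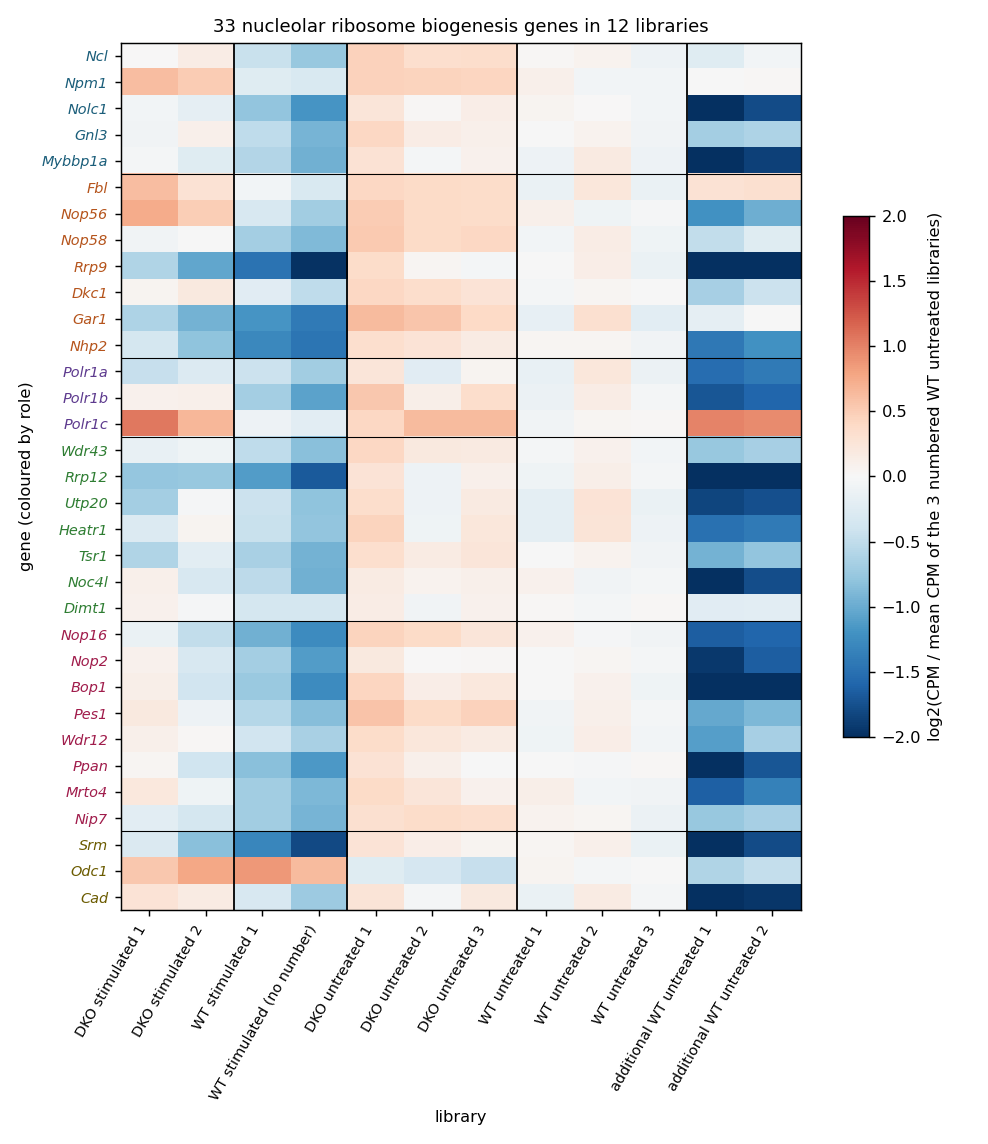
Each row is 1 of the 33 genes, coloured by role, and each column 1 of the 12 libraries; colour shows the log2 ratio of its CPM to the mean of the 3 numbered untreated WT libraries, cut at 2 in either direction. Stimulated WT columns are blue for 32 of the 33 genes and red for Odc1, in 17 genes every untreated DKO column is redder than every numbered untreated WT column, and in 19 genes both additional WT columns are bluer than both stimulated WT columns.

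Per exonic length, in length-scaled TPM, the genes spanned a wide range in untreated WT cells. Npm1 stood highest at 2722 ± 115 TPM (mean ± SD, n = 3), followed by Ncl at 1049 ± 58.1 TPM and Nhp2 at 603 ± 20.3 TPM. Mybbp1a at 435 ± 56 TPM and Odc1 at 432 ± 6.08 TPM came next and did not differ beyond their spread. Wdr12 at 27.2 ± 2.54 TPM and Dimt1 at 21.4 ± 0.535 TPM were the lowest, so that the whole list was expressed. Dimt1 overlaps Kif2a on the opposite strand, which had a mean of 57.4 CPM against 25.7 CPM for Dimt1, and Gnl3, Nop56, Rrp9, Dkc1, Nhp2, Heatr1 and Bop1 likewise overlap an opposite-strand gene with a mean above 10 CPM. The sources used here do not state the strand setting of the counting, so the values of these 8 genes, and of Dimt1 above all, are uncertain.

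Promoter windows of 300 bases, 250 before and 50 after the annotated start, were held by RefSeq (build GRCm38.p6) for 28 of the 33 members. The E-box CACGTG, the palindrome that Myc with Max and related factors bind, is shown because Myc is the textbook regulator of this gene group. It was in the window of 6 of the 28 genes (21.4%), against 8.09% of all 27025 genes with a window. Each line gives 30 bases, 5′ to 3′ on the strand of the gene, with the motif in capitals.
Nop2 (chr6:125131811-125131840, plus strand): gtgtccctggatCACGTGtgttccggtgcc
Pes1 (chr11:3963965-3963994, plus strand): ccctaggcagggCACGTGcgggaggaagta
Wdr43 (chr17:71616220-71616249, plus strand): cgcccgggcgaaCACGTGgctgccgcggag
Tsr1 (chr11:74898092-74898121, plus strand): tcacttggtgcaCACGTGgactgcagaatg
Utp20 (chr10:88826765-88826794, minus strand): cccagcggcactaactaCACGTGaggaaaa
Mybbp1a (chr11:72441347-72441376, plus strand): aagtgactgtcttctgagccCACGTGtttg
In Nop2 the motif began 60 bases before the start, at position -60, and in the other 5 it began at positions 3, 18, 25, 38 and 41 after it, in the order of the lines. The GC box GGGCGG or its reverse complement was in 20 of the 28 windows (71.4%), against 38.2% of all genes, and the TATA motif TATAAA or its reverse complement in 3 of 28 (10.7%), against 15.7%. These are matches of letters on either strand, with no measure of binding in these data. No match overlapped a match of another motif in the windows of the members, and a window without a match says only that these letters are not in it.

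Nop56, the gene with the largest DKO over WT change in stimulated cells, and Odc1, the member that ran against the others, are shown with the 250 bases before their starts, with GC boxes in capitals; neither holds CACGTG there.
Nop56 (chr2:130274162-130274411, plus strand): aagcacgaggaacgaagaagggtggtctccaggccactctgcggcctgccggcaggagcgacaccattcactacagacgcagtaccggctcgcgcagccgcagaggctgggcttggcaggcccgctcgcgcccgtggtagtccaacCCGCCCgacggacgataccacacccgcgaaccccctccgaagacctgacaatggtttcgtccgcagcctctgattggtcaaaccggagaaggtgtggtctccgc
Odc1 (chr12:17544623-17544872, plus strand): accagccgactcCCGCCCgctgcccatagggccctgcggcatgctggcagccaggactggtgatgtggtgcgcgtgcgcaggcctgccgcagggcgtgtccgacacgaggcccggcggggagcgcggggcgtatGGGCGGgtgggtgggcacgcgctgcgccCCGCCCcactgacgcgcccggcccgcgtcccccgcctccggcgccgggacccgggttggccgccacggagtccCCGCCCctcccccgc
The Odc1 stretch holds the GC box 4 times and that of Nop56 holds it 1 time.

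In untreated cells, 12 of the 33 genes were higher in DKO than in WT, 20 did not pass and 1, Odc1, was lower at an adjusted p under 0.05 (edgeR's quasi-likelihood test with Benjamini-Hochberg adjustment over 13561 genes). The background was 19.5% of genes called in either direction, 8.81% higher and 10.6% lower. The median log2 fold change of the members was 0.23, against -0.01 for all genes tested, and 32 of the 33 were above 0, where 49.2% of all genes were. Scaled by plain library totals, 29 of the 33 were above 0 with a median of 0.16. For 17 members every DKO library was above every WT library, where 19.1% of all genes were so. Leaving out untreated WT library 3 left 3 of the 33 called in either direction, where 6.67% of all genes were called. Leaving out untreated DKO library 3 left 8, where 8.21% of all genes were called. With all libraries it was 13, against the 19.5% above. Counting the additional libraries as WT, none was called (9 at an unadjusted p under 0.05), where 2.28% of all genes were called. The median of the members was then 0.61, with 32 of the 33 above 0. Some cell markers also differed in the same libraries. Called lower in DKO were 2 of 7 B cell, 2 of 8 cycling and 2 of 6 tested plasma cell markers, with medians of -0.24, -0.36 and -0.45. In these lists 1, 3 and 1 markers were above 0, none called higher, and 2 of the cycling markers were higher at an unadjusted p under 0.05. Of 4 tested monocyte and macrophage markers 1 was called lower, and of 2 tested platelet markers 1 was called higher. Their part in the values of the 33 genes was not tested.

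In stimulated cells 15 of the 33 were higher in DKO, 18 did not pass and none was lower, where 11.3% of 14430 genes were called, 5.09% higher and 6.17% lower. The median log2 fold change was 0.71, against -0.03 for all genes. Of the 33, 32 were above 0, where 47.8% of all genes were, and for 30 both DKO libraries were above both WT libraries, where 29.7% of all genes were so. DESeq2 called 22 of the 33, all higher, where it called 13.7% of all genes. The count rested on single libraries: it fell when either WT library was left out and rose when either DKO library was. Calls over all genes moved in the same directions. Each such fit has a lone library assumed to vary like the other genotype. The median was 0.50 without the unnumbered WT library and 0.86 without WT library 1. It was 0.60 or 0.79 without DKO library 1 or 2. With plain library totals 6 were called, where 10% of all genes were, and the median was 0.61. In these libraries 1 of 7 B cell markers was called lower in DKO and all 7 were below 0, with a median of -0.36, and their part was not tested.

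**Figure D2:**
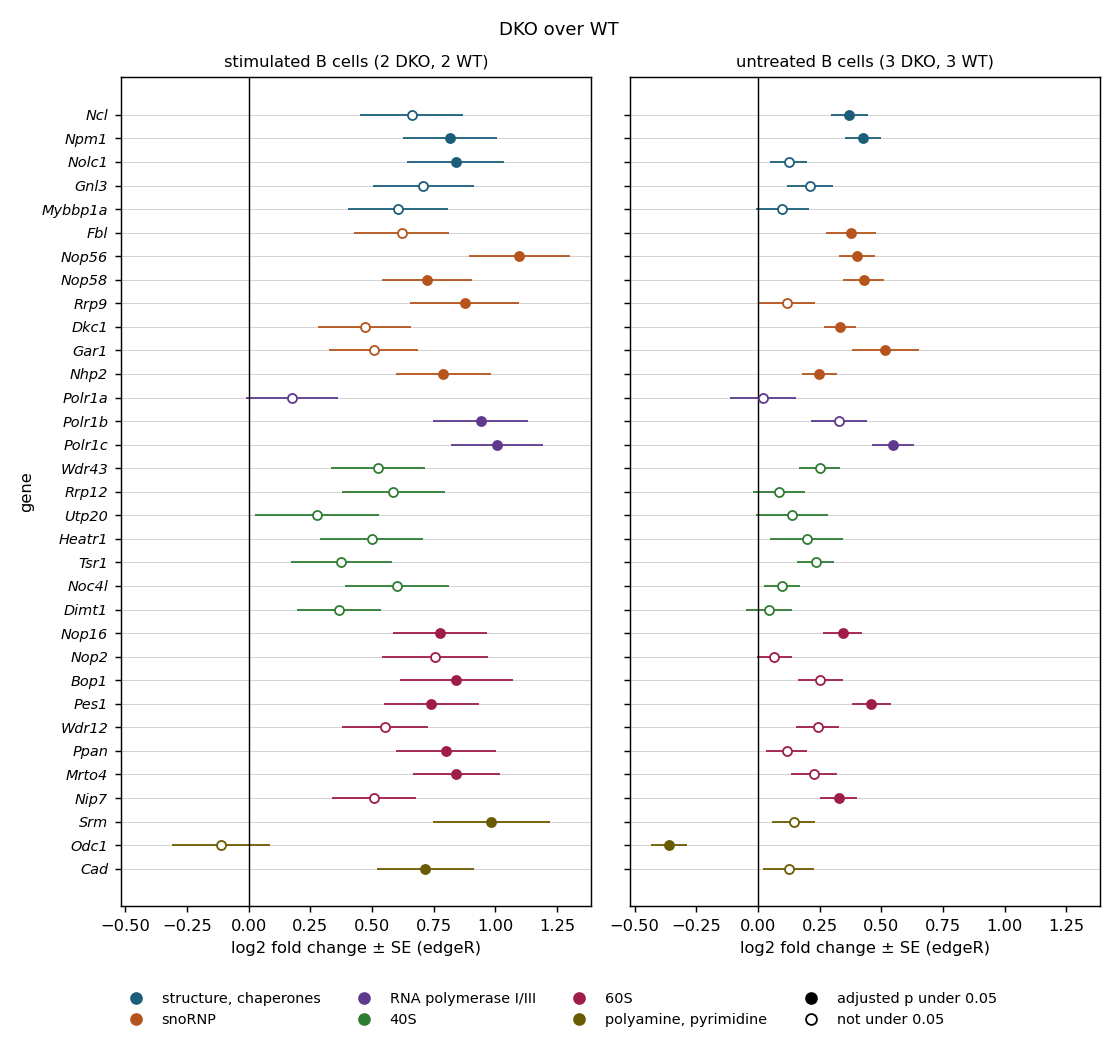
Points are log2 fold changes of DKO over WT with their standard errors from edgeR, at left in stimulated cells (2 libraries each) and at right in untreated cells (3 each), filled where the adjusted p is under 0.05. In stimulated cells 32 of 33 points lie right of 0 with a median of 0.71, in untreated cells 32 of 33 with a median of 0.23, and Odc1 is the point left of 0 in both.

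Of the calls higher in DKO, 7 genes were shared between conditions: Nhp2, Nop16, Nop56, Nop58, Npm1, Pes1 and Polr1c. They were 46.7% of the 15 called in stimulated cells and 58.3% of the 12 called in untreated cells, which come from separate libraries. Together 20 of the 33 genes were called higher in at least 1 condition. Of 13068 genes tested in both conditions, 2.76% were called higher in both and 11.3% in at least 1. The genes called in both were 55% of all stimulated calls and 30.7% of all untreated calls.

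Among the proteins of nucleolar structure, Npm1 and Ncl were the most abundant. Npm1 (chromosome 11, 33102287 to 33113206, minus strand, build GRCm39), the chaperone nucleophosmin that organises the granular part of the nucleolus, had 3560.3 and 3302 CPM in stimulated DKO cells, against 1978 and 1876 CPM in stimulated WT cells. It had 3187, 3162 and 3124 CPM in untreated DKO cells, against 2506, 2243 and 2235 CPM in untreated WT cells. The groups did not overlap in either condition, and the log2 fold change of DKO over WT was 0.82 ± 0.19 (SE; edgeR, adjusted p = 0.031) in stimulated and 0.43 ± 0.07 (adjusted p = 0.0061) in untreated cells. Ncl (chromosome 1, 86272441 to 86287122, minus strand), nucleolin, which binds nascent pre-rRNA, had 3447 and 3808 CPM in stimulated DKO cells, against 2518 and 2024 CPM in stimulated WT cells. It had 4725, 4338 and 4375 CPM in untreated DKO cells, against 3498, 3592 and 3194 CPM in untreated WT cells. Neither condition had overlapping groups; the untreated difference of 0.37 ± 0.08 passed the threshold (edgeR, adjusted p = 0.012), and the larger stimulated one of 0.66 ± 0.21 did not (adjusted p = 0.072). Nolc1, a chaperone that carries snoRNPs, had 387 and 356 CPM in stimulated DKO cells, against 233 and 177 CPM in stimulated WT cells, a log2 fold change of 0.84 ± 0.20 (edgeR, adjusted p = 0.031). In untreated cells its libraries overlapped, at 479, 408 and 444 CPM in untreated DKO cells, against 416, 403 and 388 CPM in untreated WT cells. Gnl3, the GTP-binding protein nucleostemin, and Mybbp1a, a Myb-binding nucleolar protein, did not pass in either condition, with log2 fold changes of 0.71 and 0.61 in stimulated and 0.21 and 0.10 in untreated cells. In all, 2 of the 5 rose in each condition, with a median of 0.71 in stimulated and 0.21 in untreated cells.

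The snoRNP proteins held the most calls in untreated cells, 6 of 7 (median 0.38), and 4 of 7 in stimulated cells (median 0.72). Box C/D particles guide methylation and are built on Nop56, Nop58 and the methyltransferase fibrillarin (Fbl). Nop56 (chromosome 2, 130116350 to 130121233, plus strand) had 743 and 626 CPM in stimulated DKO cells, against 357 and 275 CPM in stimulated WT cells. It had 629, 580.4 and 572 CPM in untreated DKO cells, against 478, 419 and 437 CPM in untreated WT cells. No DKO library overlapped WT in either condition, with log2 fold changes of 1.10 ± 0.20 (edgeR, adjusted p = 0.015) in stimulated and 0.40 ± 0.07 (adjusted p = 0.0083) in untreated cells. Nop58 (chromosome 1, 59724130 to 59758203, plus strand), its partner in the particle, had 433 and 454 CPM in stimulated DKO cells, against 285 and 247 CPM in stimulated WT cells. It had 654, 594 and 606 CPM in untreated DKO cells, against 436, 502 and 426 CPM in untreated WT cells. Both differences passed (edgeR, log2 fold change 0.72 ± 0.18, adjusted p = 0.039, in stimulated and 0.43 ± 0.08, adjusted p = 0.0097, in untreated cells). Fbl had 333 and 266 CPM in stimulated DKO cells, against 209.8 and 176 CPM in stimulated WT cells, and 291, 285 and 281 CPM in untreated DKO cells, against 199, 255 and 199 CPM in untreated WT cells. Its groups did not overlap, and only the untreated difference of 0.38 ± 0.10 passed (edgeR, adjusted p = 0.033; stimulated 0.62 ± 0.19, adjusted p = 0.068). Rrp9, a protein particular to the U3 snoRNP, passed in stimulated cells at 0.88 ± 0.22 (edgeR, adjusted p = 0.038) and had 0.12 ± 0.11 in untreated cells (adjusted p = 0.49).

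Box H/ACA particles guide pseudouridylation through the enzyme dyskerin (Dkc1), with Gar1 and Nhp2 as partners. Nhp2 (chromosome 11, 51510562 to 51514541, plus strand) had 173 and 127 CPM in stimulated DKO cells, against 90.8 and 80.8 CPM in stimulated WT cells, a log2 fold change of 0.79 ± 0.19 (edgeR, adjusted p = 0.036). It had 281, 268 and 249 CPM in untreated DKO cells, against 227, 227 and 211 CPM in untreated WT cells, a log2 fold change of 0.25 ± 0.07 (adjusted p = 0.04). The DKO libraries were above the WT libraries in both conditions. Gar1 had 95.7 and 76.5 CPM in stimulated DKO cells, against 64.7 and 55 CPM in stimulated WT cells, and 227, 215 and 194 CPM in untreated DKO cells, against 131, 182 and 126 CPM in untreated WT cells. Untreated WT library 2 stood above the other untreated WT libraries for Gar1 and below every DKO library; the untreated difference was 0.52 ± 0.14 (edgeR, adjusted p = 0.031) and the stimulated one 0.51 ± 0.18 (adjusted p = 0.1). Dkc1 was higher in untreated DKO cells by 0.33 ± 0.07 (edgeR, adjusted p = 0.011) and had 0.47 ± 0.19 in stimulated cells (adjusted p = 0.13).

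The 3 polymerase subunits did not move as 1 unit. Polr1c (chromosome 17, 46554846 to 46558980, minus strand), which RNA polymerases I and III share, had 194 and 148 CPM in stimulated DKO cells, against 87.1 and 80.5 CPM in stimulated WT cells. It had 124, 144 and 144 CPM in untreated DKO cells, against 88.6, 95.5 and 95 CPM in untreated WT cells. It rose in both conditions, by a log2 fold change of 1.01 ± 0.19 (edgeR, adjusted p = 0.014) in stimulated and 0.55 ± 0.09 (adjusted p = 0.0047) in untreated cells. Polr1b, the second-largest subunit of RNA polymerase I, had 173 and 175 CPM in stimulated DKO cells, against 102 and 77.5 CPM in stimulated WT cells, a log2 fold change of 0.94 ± 0.19 (edgeR, adjusted p = 0.02). In untreated cells its libraries overlapped, at 235, 176 and 208 CPM in untreated DKO cells, against 149, 179.9 and 158 CPM in untreated WT cells (adjusted p = 0.072). Polr1a, the largest and catalytic subunit, had 176 and 200.03 CPM in stimulated DKO cells, against 179.8 and 149.5 CPM in stimulated WT cells, with overlap. Its log2 fold changes were 0.18 ± 0.19 in stimulated and 0.02 ± 0.13 in untreated cells (edgeR, adjusted p = 0.56 and 0.92).

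**Figure D3:**
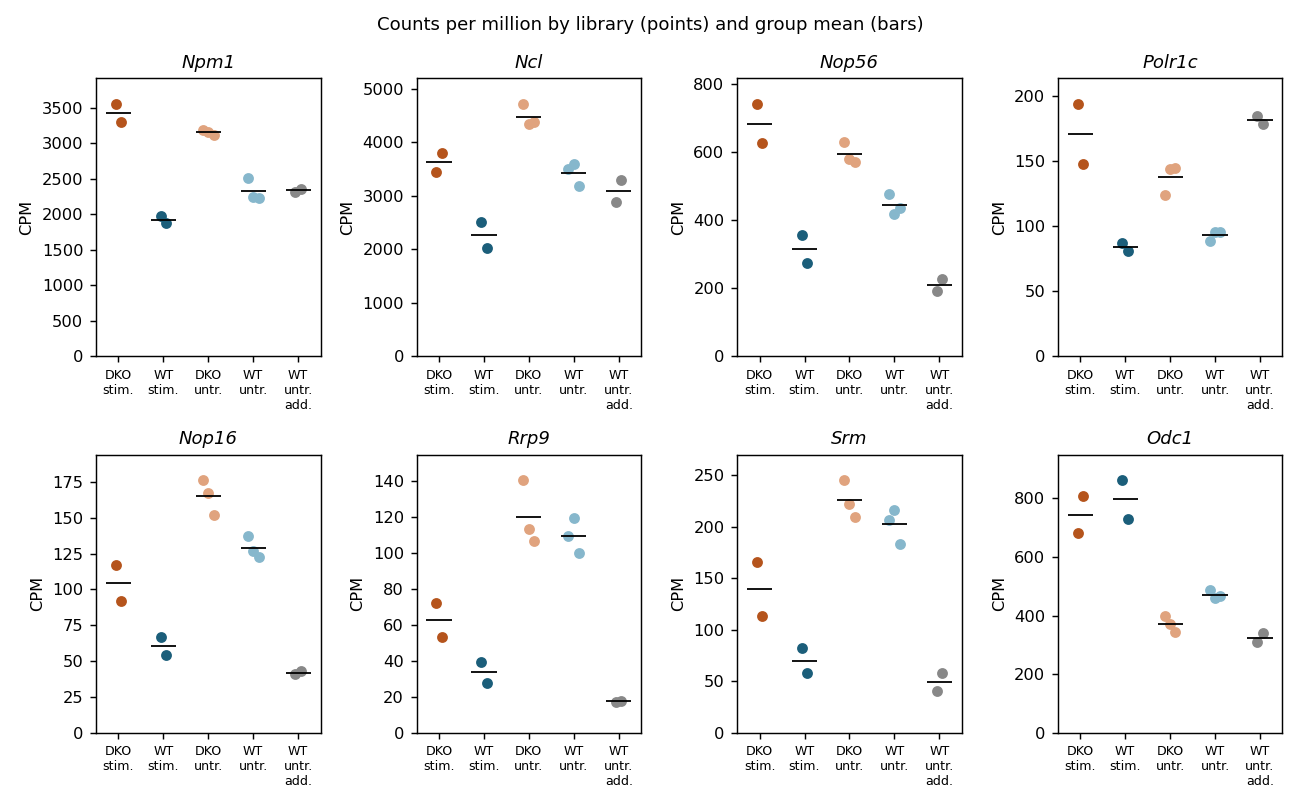
Each point is 1 library and each bar a group mean, in CPM, for 8 of the genes, with DKO beside WT in stimulated and then in untreated cells and the additional WT libraries at the right. Npm1, Ncl, Nop56, Polr1c and Nop16 show DKO points above WT points in both conditions, Rrp9 and Srm do so in stimulated cells, and Odc1 shows its highest points in stimulated cells of either genotype.

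Among the 33 members, factors of the small subunit were the class with no call in the main edgeR fits. None of the 7 passed in either condition, with medians of 0.50 in stimulated and 0.14 in untreated cells and all 7 above 0 in both. This did not hold in every edgeR fit: a single fit of 10 libraries called 27 of the 33 in stimulated cells, more than the members outside this class. At an unadjusted p under 0.05 there were 4 in stimulated and 2 in untreated cells, and DESeq2 called Wdr43 in stimulated (adjusted p = 0.044) and Tsr1 in untreated cells (adjusted p = 0.049). Wdr43, Heatr1 and Utp20 act in the early small-subunit processome. Wdr43 had 321 and 336 CPM in stimulated DKO cells, against 252 and 200.1 CPM in stimulated WT cells, and 474, 408 and 404 CPM in untreated DKO cells, against 347, 378 and 345 CPM in untreated WT cells. Its groups did not overlap, at 0.52 ± 0.19 (edgeR, adjusted p = 0.1) in stimulated and 0.25 ± 0.08 (adjusted p = 0.061) in untreated cells. Utp20 had 153 and 241 CPM in stimulated DKO cells, against 182 and 140.2 CPM in stimulated WT cells, with overlap and the smallest stimulated change of the class, 0.28 ± 0.25 (edgeR, adjusted p = 0.49). Noc4l and Rrp12 had stimulated values of 0.60 ± 0.21 and 0.59 ± 0.21, the largest of the class, Heatr1 0.50 ± 0.21, Tsr1, which acts late on pre-40S particles, 0.38 ± 0.20, and the rRNA dimethyltransferase Dimt1 0.37 ± 0.17, none past the threshold. That this class differed from the others was not tested.

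Of the 8 factors of the large subunit, 5 rose in stimulated and 3 in untreated DKO cells, with medians of 0.77 and 0.25. Pes1, Bop1 and Wdr12 form the PeBoW complex that processes the precursor of the 28S rRNA. Pes1 (chromosome 11, 3913975 to 3930004, plus strand) had 279.6 and 229 CPM in stimulated DKO cells, against 165 and 135 CPM in stimulated WT cells. It had 363, 318 and 337 CPM in untreated DKO cells, against 234, 263 and 237 CPM in untreated WT cells. Both differences passed, at 0.74 ± 0.19 (edgeR, adjusted p = 0.041) and 0.46 ± 0.08 (adjusted p = 0.0065). Bop1 had 166 and 118 CPM in stimulated DKO cells, against 92 and 64.4 CPM in stimulated WT cells, a log2 fold change of 0.84 ± 0.23 (edgeR, adjusted p = 0.047). In untreated cells it had 0.25 ± 0.09 (adjusted p = 0.081), and Wdr12 passed in neither condition, at 0.55 and 0.24. Nop16, an assembly factor of the large subunit, had 117 and 91.7 CPM in stimulated DKO cells, against 66.5 and 54 CPM in stimulated WT cells. It had 176, 167 and 152 CPM in untreated DKO cells, against 137, 127 and 123 CPM in untreated WT cells. It rose in both, at 0.77 ± 0.19 (edgeR, adjusted p = 0.036) and 0.34 ± 0.08 (adjusted p = 0.018). Mrto4, a factor that holds the place of the ribosomal stalk protein, and Ppan rose in stimulated cells, at 0.84 ± 0.18 and 0.80 ± 0.20 (edgeR, adjusted p = 0.021 and 0.039). Nip7 rose in untreated cells, at 0.33 ± 0.07 (edgeR, adjusted p = 0.017), and the rRNA methyltransferase Nop2 had 0.76 ± 0.22 and 0.07 ± 0.07, neither past the threshold.

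The metabolic enzymes were split. Odc1 (chromosome 12, 17594795 to 17601506, plus strand), ornithine decarboxylase, the rate-limiting step of polyamine synthesis, was the only member called lower in DKO, in untreated cells: it had 398, 372 and 344 CPM in untreated DKO cells, against 488, 459 and 467 CPM in untreated WT cells. Its untreated groups did not overlap, with a log2 fold change of -0.36 ± 0.07 (edgeR, adjusted p = 0.011). In stimulated cells it had 682 and 807 CPM in DKO, against 863 and 731 CPM in WT, with overlap (-0.11 ± 0.20, adjusted p = 0.74). Srm, spermidine synthase, which acts next in the pathway, had 166 and 114 CPM in stimulated DKO cells, against 81.9 and 57.6 CPM in stimulated WT cells, higher by 0.98 ± 0.24 (edgeR, adjusted p = 0.033). In untreated cells its libraries overlapped, at 245, 222 and 209.9 CPM in untreated DKO cells, against 207, 216 and 184 CPM in untreated WT cells (adjusted p = 0.26). Cad, which starts pyrimidine synthesis, had 329 and 307 CPM in stimulated DKO cells, against 217 and 165 CPM in stimulated WT cells, higher by 0.72 ± 0.20 (edgeR, adjusted p = 0.048), and in untreated cells 0.12 ± 0.10 (adjusted p = 0.43).

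Stimulated cells were compared with the numbered untreated libraries of the same genotype. In DKO cells 11 of the 33 were lower, 1, Odc1, was higher and 21 did not pass (edgeR), where 33% of 15006 genes were called, 16.2% higher and 16.8% lower. In WT cells 30 were lower and Odc1 was higher, where 40.6% of genes were called, 17.8% higher and 22.8% lower; Fbl and Polr1c did not pass. The median was -0.28 in DKO, where 6 of the 33 were above 0 against 49.1% of all genes, and -0.74 in WT, where 1 was above 0 against 48.7% of all genes. The 11 genes lower in DKO were Rrp9, Gar1, Nhp2, Nop58, Wdr43, Rrp12, Tsr1, Nop16, Pes1, Nip7 and Srm. All 11 were among the 30 lower in WT, of which they were 36.7%. The libraries did not overlap for 17 members lower and 3 higher in DKO, where 27.7% and 26.3% of all genes were so, and for 31 lower and 1 higher in WT, where 35.3% and 31.7% were. The member directions in WT were the same with plain totals and RLE size factors, while in DKO 6 members were above 0 with TMM factors or plain totals and 7 with RLE size factors.

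**Figure D4:**
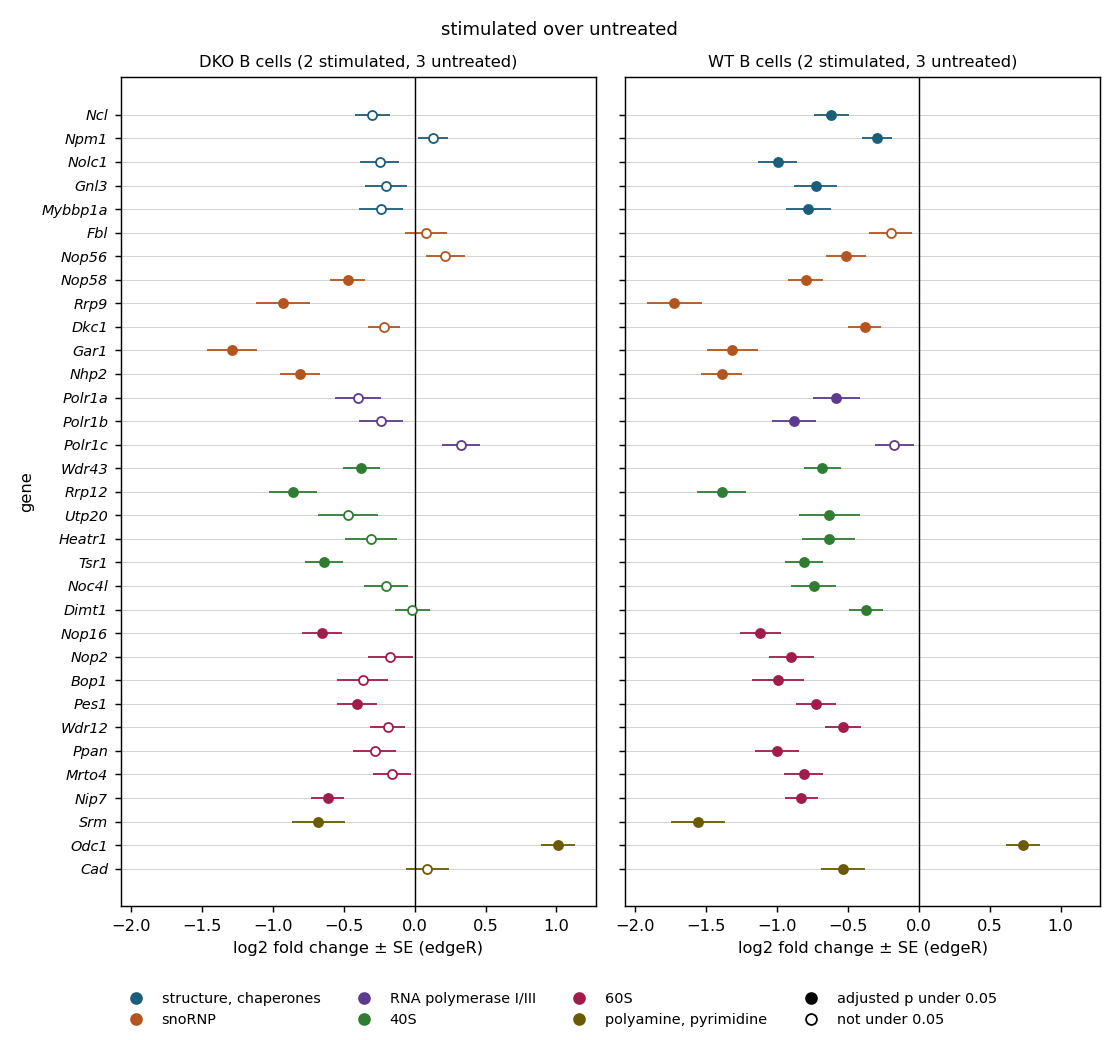
Points are log2 fold changes of stimulated over untreated cells with their standard errors from edgeR, DKO at left and WT at right (2 stimulated and 3 numbered untreated libraries each), filled where the adjusted p is under 0.05. In DKO 11 points are filled left of 0, with a median of -0.28, in WT 30, with a median of -0.74, and Odc1 is filled right of 0 in both.

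Each class held members called lower in both genotypes except the structure proteins and polymerase subunits. Rrp9, with the largest fall in WT, had 72.1 and 53 CPM in stimulated DKO cells, against 140.5, 113 and 107 CPM in untreated DKO cells, a log2 fold change of -0.93 ± 0.19 (edgeR, adjusted p = 0.0026). It had 39.4 and 27.8 CPM in stimulated WT cells, against 109, 119 and 99.9 CPM in untreated WT cells, -1.72 ± 0.20 (adjusted p = 3.1e-05). Stimulated and untreated libraries did not overlap in either genotype. Gar1 had the largest fall in DKO, with -1.29 ± 0.18 in DKO and -1.32 ± 0.18 in WT (edgeR, adjusted p = 0.00017 and 0.00012). Nhp2 fell to 173 and 127 CPM in stimulated DKO cells (-0.81 ± 0.14) and to 90.8 and 80.8 CPM in stimulated WT cells (-1.39 ± 0.15). Rrp12 of the 40S class had -0.86 ± 0.17 in DKO and -1.39 ± 0.17 in WT, and Nop16 of the 60S class -0.65 ± 0.14 and -1.12 ± 0.14, all past the threshold. Srm had -0.68 ± 0.19 in DKO (edgeR, adjusted p = 0.014) and -1.56 ± 0.19 in WT (adjusted p = 6.0e-05). Odc1 rose by 1.01 ± 0.12 in DKO and by 0.73 ± 0.12 in WT (edgeR, adjusted p = 4.8e-05 and 0.00041), with no overlap between its stimulated and untreated libraries.

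Among the structure proteins, Ncl had -0.30 ± 0.12 in DKO (edgeR, adjusted p = 0.077) and -0.62 ± 0.12 in WT (adjusted p = 0.0016). Nolc1 had -0.25 ± 0.14 in DKO (edgeR, adjusted p = 0.18) and -0.996 ± 0.14 in WT (adjusted p = 0.00015). Npm1 had 0.13 ± 0.10 in DKO (edgeR, adjusted p = 0.37) and -0.30 ± 0.10 in WT (adjusted p = 0.039). This WT call for Npm1 was lost with RLE size factors, without a low-count filter, and when any library other than the stimulated DKO ones was left out. Polr1b, Pes1, Bop1 and Ppan had -0.24, -0.41, -0.37 and -0.28 in DKO, of which Pes1 alone was called. In WT these genes had -0.88, -0.73, -0.995 and -1.002, all called.

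Of the 8 markers of cycling cells 5 rose with stimulation in each genotype. They summed to 3655 to 4498 CPM in stimulated DKO and 3944 to 4066 CPM in stimulated WT cells, against 1460 to 2085 CPM in untreated DKO and 1522 to 2346 CPM in untreated WT cells. Summed B cell markers were 4609 to 5377 CPM in stimulated DKO and 6066 to 6393 CPM in stimulated WT cells, against 2955 to 3406 CPM in untreated DKO and 3464 to 3898 CPM in untreated WT cells. Their part in the fall of the ribosome biogenesis genes was not tested.

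The additional WT libraries turned the WT comparison round, in an alternative chosen after seeing the data. Set against these 2 in place of the 3 numbered ones, stimulated WT cells had 17 of the 33 genes higher and 5 lower (edgeR), where 21.3% of 15067 genes were called higher and 23.0% lower, with a median of 0.50. Bop1 was at 21.3 and 31.5 CPM in the additional libraries, Cad at 60.1 and 70.5 CPM and Mybbp1a at 182 and 223 CPM, and against them stimulated WT cells had log2 fold changes of 1.55, 1.53 and 1.22 for these genes. Called lower were Ncl, Fbl, Nop58, Gar1 and Polr1c; Odc1 was higher with either set. Of the 31 genes called with the numbered libraries, 22 changed sign and 4 kept both call and direction. Set against the same 2 libraries, untreated DKO cells had 29 of the 33 genes higher and 1, Polr1c, lower, where 30.6% and 29.4% of 14221 genes were called, with a median of 1.54. With all 5 untreated WT libraries as 1 group, 4 genes were called between stimulated and untreated WT cells, 3 lower and 1 higher. The median of the 33 was then -0.40, with 31 below 0. The share of all genes called in that fit is not given here, so a general loss of calls cannot be told apart. With the same 5 as 1 group, none was called between untreated DKO and WT cells (9 at an unadjusted p under 0.05, all higher). In that DKO comparison 2.28% of all genes were called, and the median of the 33 was 0.61, with 32 above 0. The additional libraries came from another table with gene coordinates of an older build, so table and sample cannot be told apart, and the direction of the change with stimulation in WT cells depends on which untreated libraries are used.

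**Figure D5:**
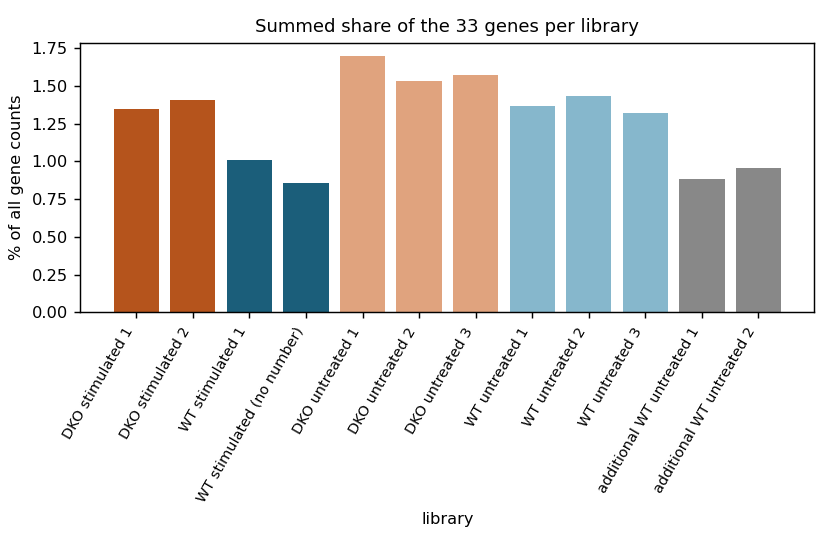
Bars give the summed counts of the 33 genes as a percent of all gene counts in each of the 12 libraries, with DKO left of WT. Stimulated DKO libraries hold 1.34% and 1.40%, stimulated WT libraries 1.01% and 0.859%, untreated DKO libraries 1.53% to 1.70%, numbered untreated WT libraries 1.32% to 1.43% and the additional ones 0.882% and 0.958%.

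Whether the genotypes differed more in stimulated than in untreated cells was tested as the interaction, the log2 fold change of DKO over WT in stimulated minus that in untreated cells. Its estimate was above 0 for all 33 genes, where 55.3% of all genes were, with a median of 0.47; it was above 0 for 32 with plain totals and for 31 without the unnumbered WT library. Counting the additional libraries as WT, it was above 0 for 22, with a median of 0.07, and with them in place of the numbered ones for 5, with a median of -0.75. None passed the threshold for the interaction in edgeR, where 0.140% of 15006 genes did, 0.133% higher and 0.00666% lower. At an unadjusted p under 0.05 there were 18, all positive, where 7.78% of all genes were positive at that p. DESeq2 called 2, Nolc1 and Nop56, where it called 1.26% of genes with an adjusted p. The smallest adjusted p was that of Nolc1, 0.18 with an interaction of 0.75 ± 0.19 (edgeR). Srm had the largest estimate, 0.88 ± 0.26 (edgeR, adjusted p = 0.26), then Rrp9 at 0.80 ± 0.26 and Nop56 at 0.73 ± 0.20 (adjusted p = 0.28 and 0.2), and Gar1 the smallest, 0.03 ± 0.24. Without stimulated DKO library 2, which leaves a lone library in its group, the median was 0.50, with 31 of the 33 above 0. With the additional WT libraries in place of the numbered ones, 1 was called positive and 19 were called negative, where 13.8% and 13.1% of genes were called.

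Other genes of the pathway ran from polymerase factors to exonucleases and further metabolic enzymes. In stimulated cells 179 of the 180 found were tested, of which 32 (17.9%) were higher in DKO and 3 lower, with a median of 0.45, where 5.09% and 6.17% of all genes were called. With plain totals these 35 calls became 17, where 10% of all genes were called. They fell when either WT library was left out and rose when either DKO library was, as calls over all genes did. The median was then 0.36 without the unnumbered WT library, 0.57 without WT library 1 and 0.41 or 0.55 without DKO library 1 or 2. In untreated cells 178 of the 179 found were tested, of which 38 (21.3%) were higher and 4 lower, with a median of 0.17, where 8.81% and 10.6% of all genes were called. These 42 became 11 without WT library 3, 22 without WT library 1 or DKO library 3, and 0 counting the additional libraries as WT. In these fits 6.67%, 12.3%, 8.21% and 2.28% of all genes were called, in that order. The large-subunit list held most, 15 of 62 higher in stimulated and 19 of 61 in untreated cells, none lower. Of the 54 small-subunit genes of this wider list, 9 were higher in stimulated and 6 in untreated cells, none lower. Rbm28, a large-subunit factor, had 0.96 ± 0.18 in stimulated and 0.47 ± 0.07 in untreated cells (edgeR, adjusted p = 0.014 and 0.0051). Nop10, the fourth protein of H/ACA particles, had 0.84 ± 0.17 and 0.50 ± 0.09 (edgeR, adjusted p = 0.021 and 0.0074), and the nuclease Dis3 0.92 ± 0.19 and 0.51 ± 0.07 (adjusted p = 0.02 and 0.0036). Paralogs could part: the CTP synthase Ctps rose by 0.99 ± 0.19 in stimulated DKO cells (edgeR, adjusted p = 0.016), while Ctps2 had -1.14 ± 0.16 (adjusted p = 0.006). Pih1d1, a snoRNP assembly cofactor, was also lower, at -0.85 ± 0.20 in stimulated and -0.74 ± 0.09 in untreated cells (edgeR, adjusted p = 0.031 and 0.0025). Between stimulated and untreated cells, 11 of 178 were higher and 65 lower in DKO, where 16.2% and 16.8% of all genes were. In WT 5 were higher and 129 lower, where 17.8% and 22.8% of all genes were. With the additional WT libraries in place 54 were higher and 25 lower in WT, where 21.3% and 23.0% of all genes were. Trmt112, an activator of rRNA methyltransferases, rose by 2.40 ± 0.18 in DKO and 1.52 ± 0.17 in WT (edgeR, adjusted p = 8.8e-07 and 3.0e-05), and Sms, spermine synthase, by 1.37 ± 0.10 and 1.45 ± 0.10 (adjusted p = 7.8e-07 and 5.3e-07).

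The transcripts of Myc itself were higher in stimulated DKO than in stimulated WT cells. Myc had 416 and 325 CPM in stimulated DKO cells, against 182 and 164 CPM in stimulated WT cells, higher by 1.08 ± 0.19 (edgeR, adjusted p = 0.012). It had 555, 429 and 401 CPM in untreated DKO cells, against 312, 411 and 325 CPM in untreated WT cells, with overlap (0.39 ± 0.14, adjusted p = 0.083). From the same levels, stimulated over untreated was -0.31 ± 0.18 in DKO (edgeR, adjusted p = 0.21) and -1.04 ± 0.18 in WT (adjusted p = 0.0007). In the additional WT libraries Myc had 249 and 222 CPM, below the numbered untreated WT libraries and above the stimulated WT libraries. Its part in the values of the 33 genes was not tested.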

How the data were processed

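Poly(A) RNA libraries had been counted per gene by the submitters; the processing notes name HISAT2 2.2.1, HTSeq 0.6.1, cutadapt 1.9.1 and FastQC 0.10.1. The deposited values used are raw whole-number counts per gene on build GRCm39, per the submitters' processing notes, although the additional WT libraries' table lists coordinates of an older build; 12 FPKM columns deposited beside them were not used. The sources used here state neither the strand setting nor the annotation release. Samples were grouped by the genotype and treatment in the labels. 1 stimulated WT column carries the number 3, which no stimulated WT label has, and was used as the unnumbered WT library.

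Untreated cells (6 libraries) and stimulated cells (4) were fitted separately with edgeR 4.0.16 (R 4.3.3), with TMM factors, a filter of at least 10 counts and 15 in total, quasi-likelihood tests and Benjamini-Hochberg adjustment over all genes tested, with a threshold of 0.05. Comparisons of stimulated with untreated cells and the interaction came from 1 fit of these 10 libraries. SE is the log2 fold change divided by the root of the F statistic. TPM used the deposited exonic lengths. Alternatives were DESeq2 1.42.0, other scalings and filters, left-out libraries, a replicate block and the additional WT libraries. For each library, the deviations of all genes tested from their group means were taken on the log2 scale. Between same-numbered untreated DKO and WT libraries these deviations correlated at -0.363, -0.366 and 0.158, so the numbers were not taken as pairs. Between untreated DKO library 1 and WT library 2, which read as female, they correlated at 0.46. The scripts were tested on simulated data. Promoter windows came from RefSeq, build GRCm38.p6, matched by symbol.

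The members and gene lists were chosen with earlier results of these data known. Values per library are given for called members with the smallest p, up to 3 in a role class and comparison, but not for all of them. Dkc1, Gnl3, Mrto4, Nip7, Ppan, Rrp12 and Tsr1 also met this rule in some comparison and are given without such values. Members called against the majority have them. Other members with such values (among them Fbl, Bop1, Polr1a, Wdr43 and Utp20) were chosen after their values were seen. Other pathway genes were named from the 3 called genes with the smallest p in each direction of each list.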

Additional observations from a re-analysis of the deposited data

Results flagged for a closer look

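For Npm1, every stimulated DKO library was above every untreated DKO library, and every stimulated WT library was below every numbered untreated WT library. The log2 fold change of stimulated over untreated cells was 0.13 in DKO (edgeR, adjusted p = 0.37), which did not pass, and -0.30 in WT (adjusted p = 0.039). The difference of the log2 fold changes, DKO minus WT, was 0.42, and the test of that difference did not pass (edgeR interaction, adjusted p = 0.30).

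For Polr1c the libraries were ordered in the same way, but neither change passed: it was 0.33 in DKO (edgeR, adjusted p = 0.081) and -0.17 in WT (adjusted p = 0.33). The difference of 0.50 did not pass (edgeR interaction, adjusted p = 0.35), and in the additional WT libraries Polr1c stood above the numbered untreated WT libraries.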

How the results depend on the processing

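Counts of the 33 genes called include both directions. The share of all genes called also moved with the setting and with the library left out. Between stimulated DKO and WT cells it was 11.3% in the main fit and 11.2% without a low-count filter. It was 10% with plain totals and 22.9% in a single fit of 10 libraries. In stimulated cells (15 called between DKO and WT), 23 were called without a low-count filter, 6 with plain totals, 27 in a single fit of 10 libraries and 0 to 29 when 1 library was left out. In untreated cells (13 called), 2 were called with a minimum log2 change of 0.5, and the replicate block left 3. When 1 library was left out 3 to 14 were called, where 6.67% to 19.9% of all genes were. Counting the additional libraries as WT gave 0 and putting them in place of the numbered ones gave 30. Of all genes, 5.8% were called with the replicate block, 2.28% with the additional libraries counted as WT and 60% with them in place. Between stimulated and untreated cells, a minimum log2 change of 1 left 2 in DKO (12 called) and 7 in WT (31 called). With the additional libraries counted as WT, 4 were called in WT. The replicate block here used the 9 numbered libraries, which dropped the unnumbered WT library and left a lone stimulated WT library. Fewer were called with it in both genotypes, with medians of -0.32 in DKO and -0.65 in WT. When 1 library was left out, the medians were -0.33 to -0.19 in DKO and -0.93 to -0.58 in WT, and the WT count did not rise. Shares of all genes called in these fits are not given here. The interaction (0 called) had 2 with DESeq2, 8 without a low-count filter and 20 with the additional libraries in place. Of all genes with an adjusted p, 1.26%, 1.83% and 26.9% were called in these fits. The median interaction was 0.40 with the block of 9 libraries and 0.32 to 0.57 when 1 library was left out. None was called when an untreated library was left out. For stimulated DKO against WT cells alone, no paired analysis was possible because their columns share only the number 1: the titles number both 1 and 2, but 1 WT column carries the number 3. Other alternatives gave counts within 1.5 times. The causes were not tested. Over all genes, plain totals moved the share of calls that were higher in DKO to 30.6% in stimulated and 28.6% in untreated cells.

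The additional WT libraries in place of the numbered ones turned the signs of these genes, each called with at least 1 of the sets. Between untreated DKO and WT cells these were Odc1 (0.23) and Polr1c (-0.37). Between stimulated and untreated WT cells they were Bop1 (1.55), Cad (1.53), Dkc1 (0.16), Heatr1 (0.82), Mrto4 (0.68), Mybbp1a (1.22), Noc4l (1.22), Nolc1 (0.89), Nop16 (0.50), Nop2 (0.89), Nop56 (0.57), Pes1 (0.24), Polr1a (0.88), Polr1b (0.76), Ppan (0.86), Rrp12 (1.04), Rrp9 (0.93), Srm (0.48), Tsr1 (0.063), Utp20 (1.16), Wdr12 (0.34) and Wdr43 (0.032). Counted as WT, they turned Cad (0.011). For the interaction, 28 of the 33 estimates were below 0 with them in place and 11 with them counted as WT, none of the 11 called (edgeR). The 19 called below 0 in place were Bop1 (-1.93), Cad (-1.45), Heatr1 (-1.13), Mrto4 (-0.85), Mybbp1a (-1.47), Nhp2 (-0.75), Noc4l (-1.43), Nolc1 (-1.14), Nop16 (-1.16), Nop2 (-1.07), Pes1 (-0.65), Polr1a (-1.29), Polr1b (-1.01), Ppan (-1.15), Rrp12 (-1.91), Rrp9 (-1.87), Srm (-1.17), Tsr1 (-0.71) and Utp20 (-1.64).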

Other observations

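The libraries of 1 group also differed in these genes. Stimulated WT library 1 was above the unnumbered stimulated WT library in 33 of the 33 genes, with a median log2 ratio of 0.31. Untreated DKO library 1 was above library 2 in 31 genes and above library 3 in 31, with medians of 0.17 and 0.18. Untreated DKO library 1 and untreated WT library 2 read as female from Xist and Y-linked genes and the other 10 libraries as male, which the labels do not mention. With a term for sex 19 of the 33 genes were called between untreated DKO and WT cells, where 32.4% of all genes were. Without these 2 libraries 17 were called, where 24.6% of all genes were. In the main fit it was 13, where 19.5% of all genes were called.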
